A study of Mus musculus with 14 samples.

Results

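The gastrokines Gkn1, Gkn2 and Gkn3 and the trefoil factor family peptides Tff1, Tff2 and Tff3 were followed across normal duodenum and duodenal tumors of the mouse. They were taken by name as the table rows to which the platform annotation gives exactly 1 of these symbols, with the brightest row used where a gene has several. All 6 genes were found, each with a single row, among 19938 genes with a symbol of their own. Total RNA was read on Affymetrix arrays (Mouse Gene 1.0 ST), whose short probes lie along the whole transcript, and the values are log2 array signal, so that a difference of 1 is a doubling. The 14 arrays came from 9 age-matched mice of mixed 129S7/SvEv and C57/BL6 background. The wildtype group held normal duodenum of 3 mice. The tumor group held tumors of 6 mice that carry the CreERT2 insertion on both copies of Lrig1 (Lrig1-CreERT2/CreERT2, Lrig1-/-). The adjacent group held normal duodenum taken beside the tumor in 5 of these 6 mice, so it shares the null genotype with the tumors. All samples came from proximal duodenum. Tumors occurred here only with the null genotype, so that genotype and tumor tissue are separated only by the adjacent samples, and CreERT2 stands under the Lrig1 promoter in all null samples.

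Trefoil peptides are small secreted proteins held in a compact looped fold by disulfide bonds; they travel with mucins and help the gut lining to close over wounds. Gastrokines are secreted proteins of the stomach lining that carry a BRICHOS domain. In the normal gut, Tff1, Gkn1 and Gkn2 belong to the surface mucous cells of the stomach, Tff2 to the neck mucous cells of the stomach and to Brunner glands of the duodenum, and Tff3 to goblet cells of the intestine. The Gkn2 protein is known to form a disulfide-linked pair with Tff1.

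In the RefSeq table of GRCm38.p6, Gkn1, Gkn2 and Gkn3 are consecutive genes, and Tff3 and Tff2 are neighbours, with the non-coding gene Gm15318 between Tff2 and Tff1 and overlapping Tff1. Of the 6 genes, only Gkn1, Gkn2 and Gkn3 matched an entry of the RefSeq promoter table, and their promoters are shown for that reason. Each sequence is the 250 bases before the start site, read 5′ to 3′ on the strand of the gene, with matches to the GATA motif, AGATAA or TGATAA on either strand, in capitals. Gkn1 lies on the minus strand at chr6:87350916-87351165, Gkn2 on the plus strand at chr6:87373115-87373364, and Gkn3 on the minus strand at chr6:87388936-87389185, all in GRCm38.p6.
Gkn1: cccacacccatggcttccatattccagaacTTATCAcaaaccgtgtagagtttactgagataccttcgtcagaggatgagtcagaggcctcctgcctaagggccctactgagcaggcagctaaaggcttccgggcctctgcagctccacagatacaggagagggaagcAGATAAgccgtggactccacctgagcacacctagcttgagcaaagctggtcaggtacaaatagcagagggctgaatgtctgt
Gkn2: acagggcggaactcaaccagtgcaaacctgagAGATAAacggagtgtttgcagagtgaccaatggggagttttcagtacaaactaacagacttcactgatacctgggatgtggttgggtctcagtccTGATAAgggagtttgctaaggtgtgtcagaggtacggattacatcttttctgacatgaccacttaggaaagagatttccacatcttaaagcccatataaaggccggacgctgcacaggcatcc
Gkn3: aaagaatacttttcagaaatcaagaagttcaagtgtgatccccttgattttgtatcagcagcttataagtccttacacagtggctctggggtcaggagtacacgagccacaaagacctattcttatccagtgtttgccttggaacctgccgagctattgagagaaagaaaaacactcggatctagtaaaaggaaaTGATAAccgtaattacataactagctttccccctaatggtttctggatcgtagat

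The GATA motif was chosen after these sequences had been read. It was matched at 220 and 82 bases before the start site in Gkn1, at 218 and 123 bases in Gkn2 and at 55 bases in Gkn3. Of all 32851 promoters of the same length, 16.6% held at least 1 such match and 2.72% held 2 or more. A TATA motif, TATAAA on either strand, was matched only in Gkn2, at 29 bases, and 12.4% of all promoters held one. Neither a forkhead motif, TGTTTAC or TATTTAC (5.76% of promoters), nor a Cdx motif, TTTATG (10.8%), was matched in these 3 windows. These are matches of letters and do not show binding.

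Several arrays stood apart before any comparison was made. Lrig1 itself was at 9.54, 9.34 and 8.22 in wildtype replicates 1, 2 and 3, between 6.95 and 7.40 in adjacent tissue and between 7.65 and 8.54 in tumors, so that all 5 adjacent arrays lay below all wildtype arrays while tumors overlapped wildtype. Where the probes of this row lie relative to the insertion is not known here, so the level does not check the genotype. The mean of 10 measured pancreatic acinar genes (12 listed) was 13.5 to 14.2 in wildtype replicates 1 and 3 and adjacent replicates 1 and 2, and 7.66 to 7.88 in the other 4 non-tumor arrays. Tumors lay at 7.54 to 10.2. The same 4 non-tumor arrays had S100g, a calcium-binding protein of proximal duodenum, at 13.54 ± 0.14 (SD, n = 4) against 8.48 ± 0.64 (n = 4) in the others. The mean of 8 duodenal epithelium genes, the labelled tissue, was 11.8 to 12.3 in wildtype, 12.1 to 12.3 in adjacent tissue and 10.9 to 11.4 in tumors, and the parietal cell pump gene Atp4a stayed between 6.62 and 7.17 on every array. In whole-tissue RNA, fewer cells of a type and less RNA per cell cannot be told apart.

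The first question was how a tumor differed from normal duodenum of the same mouse. All 3 gastrokines, Tff1 and Tff2 rose in tumors, and each lay higher in the tumor in 5 of 5 mice. Tff3 did not pass the test and was near the top of the scale in every group. The 5 genes that rose are 5 of 6, where 19.1% of all 19938 genes were called higher in this comparison, and all 5 had groups that did not overlap, where 10.3% of all genes did so in that direction. The 6 genes were chosen with earlier results of these data known, so these shares describe the genes and do not test them. None of the 6 fell, where 12.6% of all genes were called lower. The median log2 fold change was 6.05 over the 6 genes and 0.04 over all genes.

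Gkn2 was at 8.95, 6.74, 5.94, 5.16 and 6.47 in adjacent replicates 1 to 5 and at 14.01, 14.12 and 14.35 as the lowest, median and highest of 6 tumors. Every tumor lay above every adjacent sample by at least 5 log2 units. The tumors lie near the highest signal of the table, 14.8, so their narrow spread is that of a signal that may be close to its ceiling. The log2 fold change was 7.49 ± 0.87 (SE; adjusted p = 1.5e-05), or 179.7-fold in signal, the largest fitted change of the 19938 genes. With tumors near the top of the scale and most adjacent samples below the array medians of 7.11 to 7.29, with no detection call, this is a ratio of signals and not an exact fold of RNA. Gkn1, whose protein is lost early in cancers of the stomach, was at 7.81, 7.20, 7.15, 6.88 and 7.0 in adjacent replicates 1 to 5 and between 13.33 and 13.87, median 13.62, in tumors. The groups were far apart, and it rose by 6.41 ± 0.71 (adjusted p = 1.02e-05), or 84.9-fold. Gkn3, a gastrokine of gland mucous cells, was at 9.66, 7.02, 6.80, 6.71 and 7.03 in adjacent replicates 1 to 5. In the tumors Gkn3 ran from 13.44 through a median of 13.68 to 13.96. Adjacent replicate 1 was higher than the other 4, yet the groups did not overlap, and the rise was 6.27 ± 0.75 (adjusted p = 1.95e-05), or 77.1-fold.

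Tff1, the trefoil peptide of the gastric surface, was at 9.28, 7.96, 7.76, 7.62 and 8.15 in adjacent replicates 1 to 5 and between 13.75 and 14.23, median 13.95, in tumors. Its rise was 5.82 ± 0.64 (adjusted p = 9.92e-06), or 56.6-fold. As for the gastrokines, adjacent replicate 1 was the highest of the adjacent samples. Within that mouse the tumor exceeded the adjacent tissue by 3.92 for Gkn3, 4.56 for Tff1, 5.09 for Gkn2 and 5.64 for Gkn1. In the other 4 mice these differences ran from 5.60 for Tff1 to 9.0 for Gkn2.

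Tff2, the trefoil peptide of neck and Brunner gland cells, was split among the normal samples. It was at 12.44 and 13.74 in adjacent replicates 1 and 2 and at 7.64, 7.21 and 7.76 in adjacent replicates 3, 4 and 5, while tumors ran from 14.24 through 14.33 to 14.39. The adjacent samples thus fell into a high pair and 3 low samples, and even the high pair lay below every tumor. The log2 fold change was 4.57 ± 1.1 (adjusted p = 0.00482), or 23.7-fold. Within a mouse the difference was 1.81 and 0.63 for the high pair and 6.67, 7.18 and 6.59 for the other 3. The 2 high adjacent samples are those with pancreatic acinar transcripts, and both come from mice whose ID begins with F. Against adjacent samples with acinar transcripts alone, Tff2 did not pass, at 1.23 ± 0.44 (adjusted p = 0.105), and against those without them it rose by 6.79 ± 0.11 (adjusted p = 1.97e-11). Within mice of ID letter F the value was 1.20 ± 0.32 (adjusted p = 0.0704), and within letter B 6.81 ± 0.76 (adjusted p = 0.000168). Gkn1, Gkn2, Gkn3 and Tff1 rose in all 4 of these settings, Gkn1 by 6.08 ± 0.23 within letter F and 6.63 ± 0.14 within letter B. The share of all genes called higher was 5.97% against samples with acinar transcripts, 16.6% against those without, 5.54% within letter F and 14.7% within letter B. S100g, the gene of proximal duodenum, followed the same split. It was at 13.74 and 13.45 in adjacent replicates 1 and 2 and between 8.06 and 9.25 in adjacent replicates 3, 4 and 5. Tumors had S100g between 12.73 and 13.36. The 3 large Tff2 differences thus set tumors with high S100g against adjacent tissue with low S100g. The labels do not explain the letter. Letter, acinar content and S100g level cannot be told apart for the 5 adjacent samples.

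Tff3, the goblet cell trefoil peptide, was at 13.89, 13.60, 13.88, 13.96 and 13.88 in adjacent replicates 1 to 5. In tumors 1 to 6 it was at 13.86, 13.78, 12.77, 13.61, 13.52 and 14.01. Tumor replicate 3 was the lowest array, and the groups overlapped. The log2 fold change was -0.26 ± 0.14 (adjusted p = 0.185), with a 95% interval from -0.57 to 0.04, and the tumor was lower in 4 of 5 mice. The highest signal in the whole table was 14.8, so that signals near 14, as in the tumors for all 6 genes, leave little room for a further rise to be seen.

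**Figure D1:**
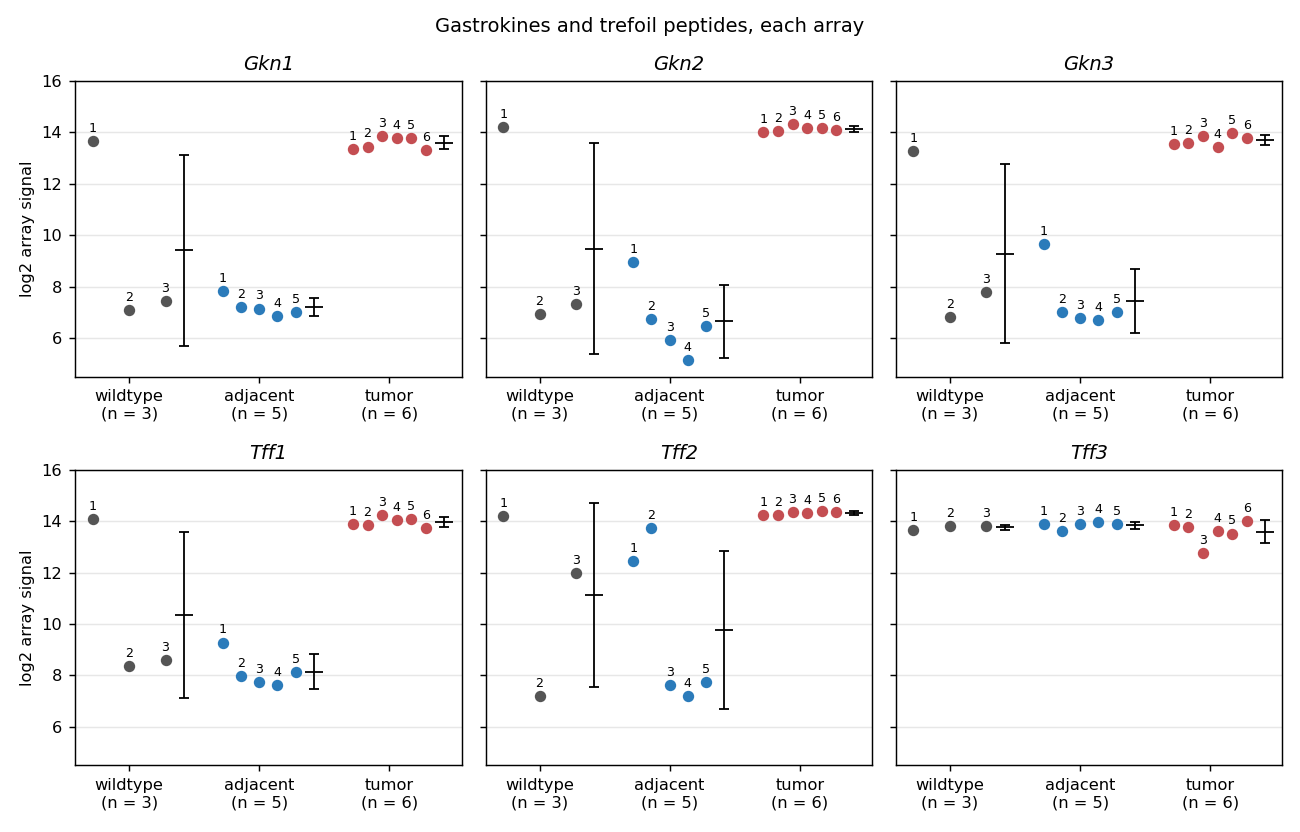
Log2 array signal of the 6 genes on every array (points, numbered by replicate) in wildtype duodenum, adjacent null duodenum and tumors; the black mark and bars at the right of each group are its mean and SD. Gkn1, Gkn2, Gkn3 and Tff1 are at tumor level or close to it in wildtype replicate 1, between 7.81 and 9.66 in adjacent replicate 1 and at 8.61 or below in the other normal arrays; Tff2 is split among the normal arrays, and Tff3 lies between 12.77 and 14.01 throughout.

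**Figure D2:**
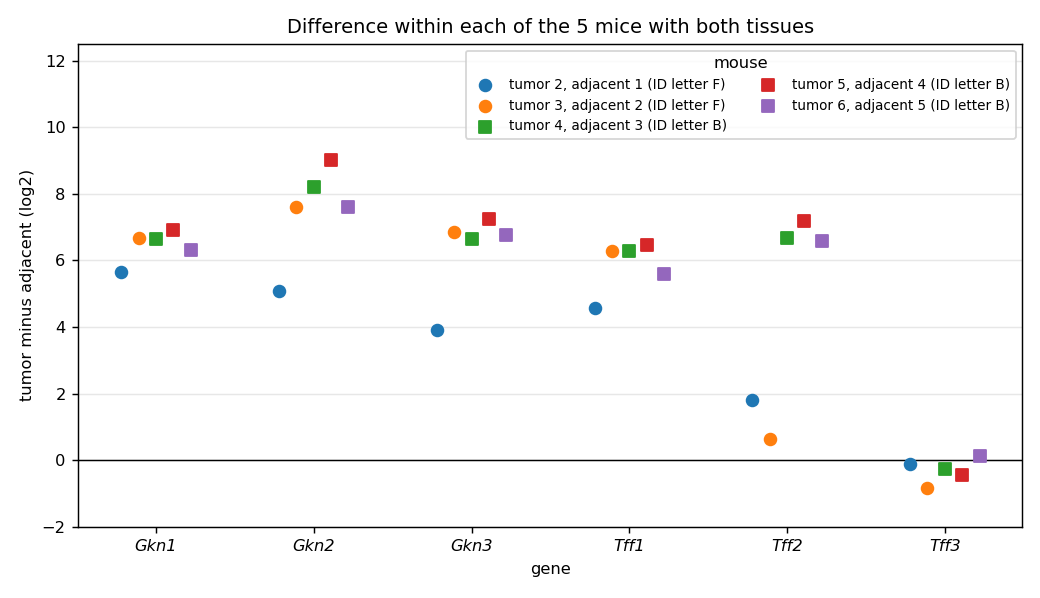
Tumor minus adjacent log2 signal for each gene in the 5 mice with both tissues; each colour is a mouse, circles mark ID letter F and squares letter B. Tff2 differs by 1.81 and 0.63 in the mice of letter F and by 6.59 to 7.18 in the others, while Tff3 lies between -0.83 and 0.14.

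The second question was how tumors differed from duodenum of mice with intact Lrig1. Gkn1, Gkn2, Gkn3 and Tff1 rose, and Tff2 and Tff3 did not pass. This is 4 of 6 genes, where 9.65% of all genes were called higher; none fell, where 4.48% of all genes were called lower. The comparison shares its tumors with the one before. The normal tissue of this comparison was not uniform. Wildtype replicates 1, 2 and 3 had Gkn1 at 13.68, 7.11 and 7.44, Gkn2 at 14.20, 6.94 and 7.32, and Gkn3 at 13.28, 6.81 and 7.78. They had Tff1 at 14.09, 8.36 and 8.61, and Tff2 at 14.21, 7.19 and 11.98. Wildtype replicate 1 lay inside or just below the tumors' range for all 5 of these genes, and the other wildtype arrays lay far below it, apart from Tff2 in replicate 3. Tff3 was even, at 13.66, 13.83 and 13.83.

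With all 3 wildtype arrays, the log2 fold change was 4.19 ± 1.00 (SE) for Gkn1 (adjusted p = 0.0128), 4.65 ± 1.22 for Gkn2 (adjusted p = 0.0207) and 4.41 ± 1.05 for Gkn3 (adjusted p = 0.0132). Tff1 rose by 3.61 ± 0.90 (adjusted p = 0.0163), whereas Tff2 was at 3.19 ± 1.55 (adjusted p = 0.207; 95% interval -0.12 to 6.50). Tff3 was at -0.18 ± 0.20 (adjusted p = 0.642), with a 95% interval from -0.60 to 0.25. Only Gkn3 and Tff2 had tumors wholly above wildtype; 8.53% of all genes had groups that did not overlap in that direction. Without wildtype replicate 1 the rises were 6.33 ± 0.24 for Gkn1, 7.0 ± 0.67 for Gkn2, 6.41 ± 0.62 for Gkn3 and 5.48 ± 0.34 for Tff1. Tff2 then passed as well, at 4.73 ± 1.62 (adjusted p = 0.0498), which made 5 of 6 genes where 15.6% of all genes were called higher. Without wildtype replicate 2, or without replicate 3, none of the 6 genes passed; 3.04% and 3.14% of all genes were then called higher. Gkn1, Gkn2, Gkn3 and Tff1 were at 2.62 to 3.37 in the first setting (adjusted p = 0.106 to 0.159) and at 2.74 to 3.66 in the second (adjusted p = 0.0939 to 0.146).

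Within ID letter B, which holds wildtype replicates 2 and 3 and tumors 4 to 6, 5 of 6 genes rose, Gkn2 by 7.0 ± 0.34 and Tff2 by 4.77 ± 1.05 (adjusted p = 0.0131), where 11.8% of all genes were called higher. Within letter F the only wildtype array is replicate 1, so that the spread comes from the other groups alone. There 0 of 6 genes passed, with Gkn1 at -0.12 ± 0.32, Gkn3 at 0.39 ± 0.92 and Tff2 at 0.08 ± 0.45, and 0.00502% of all genes were called higher. Without the arrays that carry acinar transcripts, wildtype replicate 2 is the only wildtype array. Tff2 was then at 7.13 and Gkn1 at 6.49, values that hold no spread between wildtype mice; with the spread of the other groups, 5 of 6 genes and 6.68% of all genes were called higher. Against wildtype replicates 1 and 3, which carry them, 0 of 6 passed (adjusted p = 0.165 for Gkn3, the lowest), and 1.26% of all genes were called higher.

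Wildtype replicate 1 differed from the other wildtype arrays in other lists too. The mean of the 11 gastric surface (pit) cell genes was 12.0 there against 7.16 and 8.18 in the others and 10.8 to 12.8 in tumors. For the 7 mucous neck and Brunner gland genes it was 10.1 against 7.32 and 7.67, and 10.1 to 11.5 in tumors. Its duodenal epithelium mean of 11.8 was the lowest of the 8 normal arrays. Its Lrig1 level of 9.54 was the highest of all arrays, and the mean of 8 chief and parietal cell genes was 7.0 there, against 6.69 to 7.20 on the other arrays. The part of tissue position or sampling in this array was not tested.

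The third question was whether null duodenum outside a tumor differed from wildtype. None of the 6 genes passed, and limma called 0 of 19938 genes in this comparison (0%); 559 genes, 3 of them among the 6, had an unadjusted p under 0.05. The 3 were Gkn1, Gkn2 and Tff1, with log2 fold changes of -2.22 ± 1.02, -2.84 ± 1.26 and -2.21 ± 0.93 (adjusted p = 0.998 for each). Gkn3 was at -1.85 ± 1.09 and Tff2 at -1.37 ± 1.59. For all 5 of these genes the groups overlapped, since 2 wildtype arrays lay among the adjacent ones or close to them. Without wildtype replicate 1 the values were -0.08 ± 0.24 for Gkn1, -0.49 ± 0.69 for Gkn2, 0.14 ± 0.63 for Gkn3, -0.34 ± 0.35 for Tff1 and 0.17 ± 1.65 for Tff2. Within ID letter F the wildtype arm is replicate 1 alone, with no wildtype spread of its own, and the values restate how far that array stands from adjacent replicates 1 and 2. Gkn1 was at -6.19 and Tff1 at -5.48 there, and 0.291% of all genes were called lower with the spread taken from the other groups. Tff3 was at 0.09 ± 0.20, with a 95% interval from -0.35 to 0.52.

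**Figure D3:**
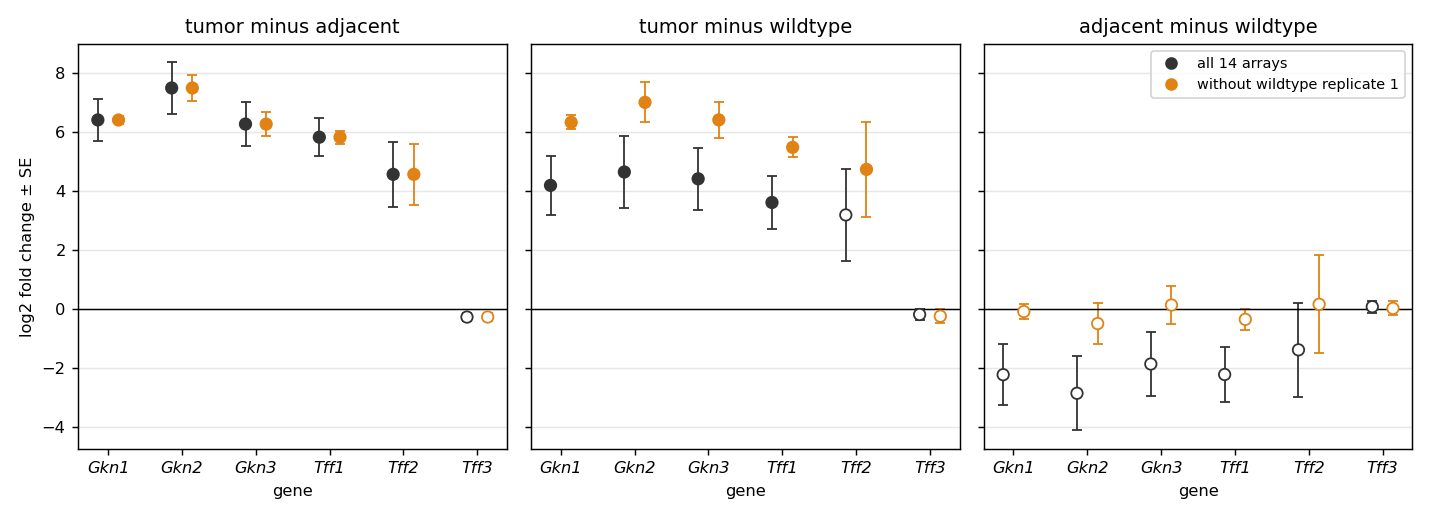
Log2 fold change with SE of the 6 genes in the 3 comparisons, with all 14 arrays (dark) and without wildtype replicate 1 (orange); filled points passed an adjusted p of 0.05 and open points did not. Tumor against adjacent tissue has nearly the same values in both, while Gkn1 against wildtype goes from 4.19 to 6.33 and adjacent against wildtype moves towards 0.

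The order of the groups was the same for Gkn1, Gkn2, Gkn3, Tff1 and Tff2: mean levels were highest in tumors, then wildtype, then adjacent tissue. The place of wildtype rests on replicate 1 for Gkn3 and Tff2. Without it their wildtype means were 7.29 and 9.59, below the adjacent means of 7.44 and 9.76. For Gkn1, Gkn2 and Tff1 the order stayed but most of the step was lost. Their wildtype means without it were 7.27, 7.13 and 8.49, against adjacent means of 7.21, 6.65 and 8.15. With all arrays, the step from wildtype to adjacent did not exceed the spread between mice for Gkn1, Gkn2, Gkn3, Tff1 or Tff2. Their wildtype SD was 3.70, 4.09, 3.49, 3.24 and 3.59, in that order. In tumors the SD was 0.25, 0.12, 0.20, 0.18 and 0.06 for the same genes, at signals near the top of the scale, where spread can be compressed. For Tff3 the means were 13.84 ± 0.14 in adjacent tissue, 13.77 ± 0.10 in wildtype and 13.59 ± 0.44 in tumors, and no neighbours in that order differed beyond their spread.

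Among the 8 normal arrays, Tff2 differed in pattern from the other 4 genes that rose. It was at 13.09 ± 1.05 (SD, n = 4) where acinar transcripts were present and at 7.45 ± 0.29 (n = 4) where they were not, and these sets were far apart. Gkn1 ran from 7.20 to 13.68 in the first set and from 6.88 to 7.15 in the second, so that its sets were separate but lay within 0.1 log2 units of each other. For Gkn2, Gkn3 and Tff1 the sets overlapped. Gkn2, Gkn3 and Tff1 were likewise high in wildtype replicate 1, intermediate in adjacent replicate 1 and near the low arrays in adjacent replicate 2, the array with the highest acinar mean. That array had Tff2 at 13.74 but Gkn2 at 6.74.

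Likeness between genes was measured over the 14 arrays as the root mean square difference between log2 profiles, each centred on its own mean, so that 0 is an identical shape. The arrays share the tumor-normal contrast, so genes that differ alike between tissues come out close. Gkn1 and Tff1 were the closest of the 6, at 0.39, followed by Gkn3 and Tff1 at 0.50 and Gkn1 and Gkn3 at 0.55. Tff2 was at least 1.78 from each of the others and Tff3 at least 3.03. Outside the 6, the gene closest to Gkn3 was the gland mucin Muc6, at 0.25. Closest to Gkn1 were Vsig1, an adhesion protein of gastric epithelium (0.37), and Sptssb, a subunit of the enzyme that starts sphingolipid synthesis (0.42). Sptssb was also closest to Tff1, at 0.34. Gkn2 was nearest to Mucl3 (0.59) and the annexin Anxa10 (0.62). The nearest gene to Tff2 was the duodenal iron reductase Cybrd1, at 0.93, then clusterin (Clu) at 0.97 and the membrane mucin Muc1 at 1.03. Cybrd1 was at 13.41, 7.70 and 12.87 in wildtype replicates 1 to 3 and at 13.54, 12.00, 8.12, 7.92 and 8.62 in adjacent replicates 1 to 5. It was thus high in the same 4 normal arrays as Tff2, and it lay between 13.03 and 13.70 in tumors. Over all genes the median distance was 2.97 for Tff2, 3.75 for Gkn2 and 0.39 for Tff3. Tff3 was nearest to the claudins Cldn7 (0.12) and Cldn3 (0.15), genes that, like it, varied little over these arrays.

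Among the tumors, replicate 3 stood at an end of the range for several of the 6 genes. It had the highest Gkn1, Gkn2 and Tff1, at 13.87, 14.35 and 14.23, and the lowest Tff3, at 12.77. Muc2, the goblet cell mucin, was also lowest there, at 11.64 against 12.85 to 13.43 in the other tumors, and Muc5ac, the surface mucin of the stomach, was highest, at 13.93 against 7.27 to 12.89. Muc2 was singled out after its values were seen. Other goblet cell genes went both ways in tumor replicate 3. Atoh1 (9.01) and Spink4 (12.55) were the lowest of the tumors there, and Rep15 (11.63), Bcas1 (11.12) and Sytl2 (10.98) the highest. The mean of the 11 measured goblet cell genes was 11.68 there, against 11.34 to 11.67 in the other tumors.

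Known partners of these peptides were measured beside them. Of 8 genes 7 were measured, and 4 rose and 0 fell in tumors against adjacent tissue, with a median log2 fold change of 0.70. Over all genes, 19.1% were called higher and 12.6% lower. Muc2 (-0.47 ± 0.21), Dmbt1 (0.23 ± 0.09) and Lingo2 (0.03 ± 0.11) did not pass. Muc6, whose sugar chains Tff2 binds, rose by 6.30 ± 0.74 (adjusted p = 1.66e-05), and A4gnt, the enzyme that caps those chains, by 4.75 ± 0.55. Muc5ac rose by 3.45 ± 1.1 (adjusted p = 0.0265), and Cxcr4, a chemokine receptor reported to respond to Tff2, by 0.70 ± 0.08. The tumors were uneven for Muc5ac, at 7.27, 8.18 and 7.68 in replicates 1, 2 and 6 and 13.93, 9.40 and 12.89 in replicates 3, 4 and 5. Adjacent tissue had Muc5ac between 6.38 and 6.93. Muc6 was at 9.68 in adjacent replicate 1 and at 7.07 in adjacent replicate 2, so that it did not share the high Tff2 of the latter. Fcgbp, the partner of Tff3, had no row with a symbol of its own.

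Genes that share a domain with the 6 were measured as well. Of 4 other trefoil-domain genes, the glucosidase Gaa rose by 1.21 ± 0.12. The brush-border sugar-splitting enzymes sucrase-isomaltase (Sis) and Mgam fell by 2.62 and 1.16 on the log2 scale, and Zp1 did not pass (0.15 ± 0.10). Of all genes, 19.1% were called higher and 12.6% lower. Of 7 other BRICHOS-domain genes 2 rose, Itm2c by 0.63 ± 0.14 and Tnmd by 0.27 ± 0.08, and 0 fell. This share, 2 of 7, is near the 19.1% of all genes called higher. Tnmd was between 6.26 and 6.88 on all arrays, below the array medians of 7.11 to 7.29.

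The cell types that normally make these peptides were described by their other markers, in lists chosen with earlier results of these data known. Of 11 further genes of gastric surface cells 10 rose and 0 fell, with a median of 4.01, led by Mucl3 (6.80 ± 0.73), Vsig1 (6.77 ± 0.79), Anxa10 (6.57 ± 0.91) and the stomach claudin Cldn18 (5.81 ± 0.71). Of 7 genes of neck and Brunner gland cells 5 rose and 0 fell, with a median of 3.48; besides Muc6 and A4gnt they include the pepsinogen Pgc (5.01 ± 0.59) and the water channel Aqp5 (3.48 ± 0.37). Of 11 measured goblet cell genes (12 listed), the cell type of Tff3, 8 rose and 1 fell, with a median of 0.95. Retnlb, a goblet cell defense protein, rose by 3.13 ± 0.78, the goblet cell regulator Spdef by 1.97 ± 0.26, Sytl2 by 1.54 ± 0.34 and Bcas1 by 1.43 ± 0.35. The goblet cell gene that fell was Zg16, at -0.30 ± 0.08 (adjusted p = 0.0107). Muc2, at -0.47 ± 0.21, and Atoh1, at -0.37 ± 0.18, did not pass, so the goblet cell genes did not move as 1. Of 8 chief and parietal cell genes 2 rose and 1 fell, with a median of 0.20, near the shares over all genes of 19.1% higher and 12.6% lower. Mfsd4a rose by 1.95 ± 0.27 and the anion exchanger Slc26a7 by 0.50 ± 0.11, and Esrrg, a nuclear receptor, fell by 0.87 on the log2 scale. Slc26a7 was between 4.98 and 6.14 on all arrays, below the array medians of 7.11 to 7.29. Against wildtype, 5 of the 11 surface cell genes, 5 of the 7 neck and Brunner gland genes and 2 of the 11 goblet cell genes rose, where 9.65% of all genes were called higher, and none of these lists had a member that fell; the medians were 2.43, 2.40 and 0.70. Among 10 acinar genes 1 fell in tumors against adjacent tissue, Rnase1, at -2.73 ± 0.68, where 12.6% of all genes were called lower; Cela3b was at -2.37 ± 1.30 (adjusted p = 0.2).

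Of 8 duodenal epithelium genes 6 fell and 0 rose, led by the peptidase Anpep (-3.03 ± 0.19), the fatty acid binding proteins Fabp2 (-2.50 ± 0.28) and Fabp1 (-2.08 ± 0.27), and the microvillus protein Vil1 (-0.86 ± 0.12). Of 12 foregut and intestinal regulators 4 rose and 3 fell, where 19.1% of all genes were called higher and 12.6% lower. The forkhead factor Foxa1 rose by 3.08 ± 0.27, Spdef by 1.97 ± 0.26 and Foxa3 by 1.39 ± 0.25, and Gata6 fell by 0.66 on the log2 scale. Foxa1 was at 10.94 in wildtype replicate 1, at 8.65 to 9.05 in the other normal arrays and at 11.38 to 12.39 in tumors, so that array again lay apart from the other normal ones.

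**Figure D4:**
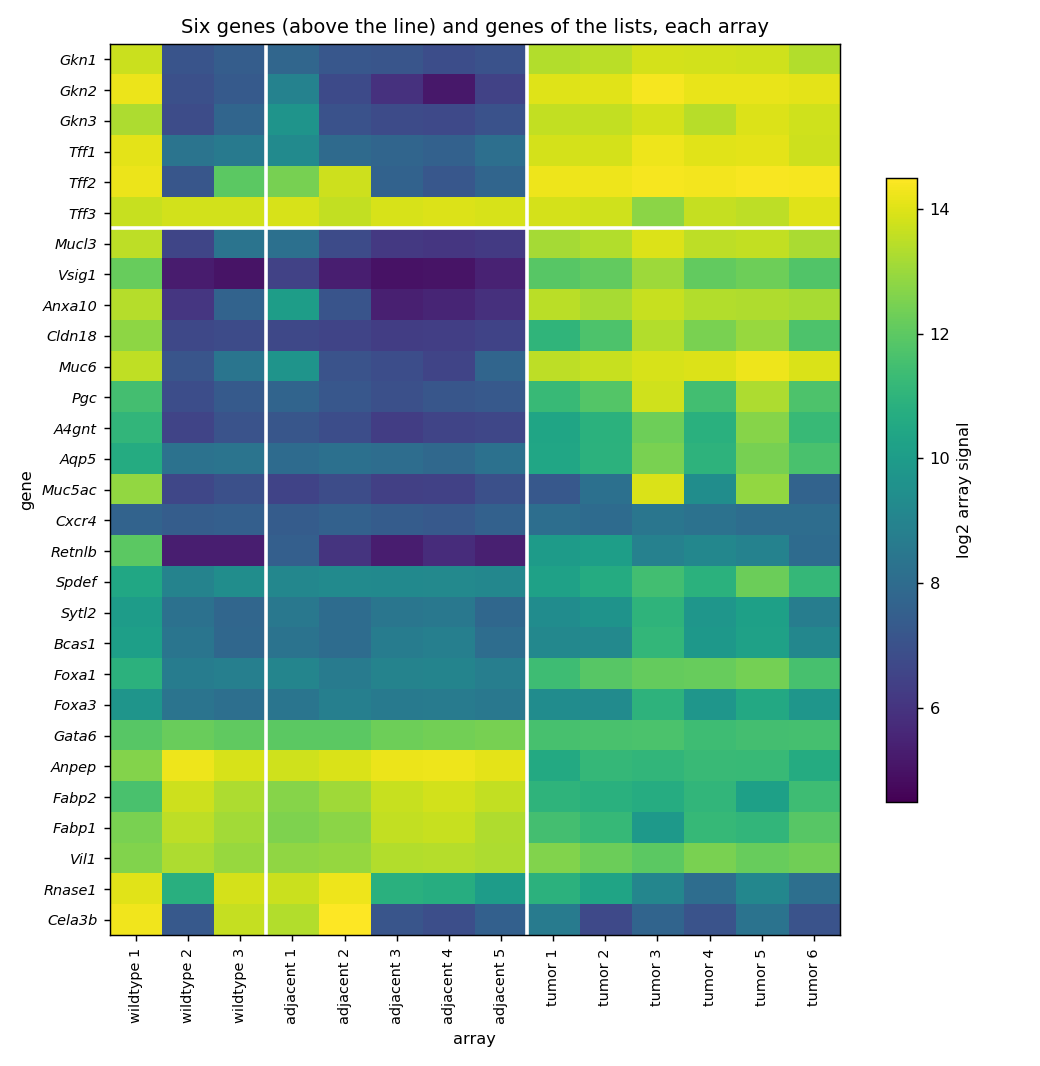
Log2 array signal (colour) of the 6 genes, above the white line, and of genes named from the lists, on each of the 14 arrays; white vertical lines divide wildtype, adjacent and tumor arrays. Wildtype replicate 1 is bright for the gastric genes, and Tff2 is bright in wildtype replicates 1 and 3 and adjacent replicates 1 and 2, where Rnase1 and Cela3b are bright too.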

How the data were processed

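Total RNA of 14 samples was read on 1-colour arrays. The deposited table holds 35556 transcript clusters as log2 signal, a unit read from the values (2.87 to 14.8). Affymetrix Expression Console 1.1 and mm9 are named, per the submitters' processing notes; how background and normalization were set is not given in the sources used here. Medians per array were 7.11 to 7.29, so no scaling was added. Symbols came from the platform annotation, updated by gene identifier (21698 of 21789 rows with 1 symbol matched); 1621 rows with several symbols and 12146 with none were left out.

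Group means were fitted to all 14 arrays with limma 3.58.1 (R 4.3.3), mouse as random block (correlation 0.334), with two-sided moderated tests and Benjamini-Hochberg adjustment over 19938 genes at 0.05. The fit was tested on simulated data. SD is between mice; SE and 95% intervals come from the fit. The labels name each mouse, which pairs the tissues: deviations of tumor and adjacent tissue correlated at a mean r of 0.225 over genes within a mouse and -0.044 between mice. Each mouse gave 1 array per tissue, and the number of arrays limits the precision. The 6 genes and all lists were chosen with earlier results of these data known. Named are the 6 genes, up to 4 members of each list with the largest change past the threshold (2 at least), and up to 3 genes nearest in profile. Acinar arrays are non-tumor arrays with an acinar mean above 10. In all, 27 alternatives were run.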

Additional observations from a re-analysis of the deposited data

Results flagged for a closer look

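Gkn3 in adjacent replicate 1, at 9.66, was far above the other 4 adjacent samples, which lay between 6.71 and 7.03. Tff3 in adjacent replicate 2, at 13.6, was below the other 4, which lay between 13.88 and 13.96. Both were picked out by a gap test within the group (Dixon's), which marks about 1 in 20 groups by chance; 12 groups were tested. The same 2 samples carry pancreatic acinar transcripts, and their part in these values was not tested.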

How the results depend on the processing

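Over 27 alternatives the count of the 6 genes higher in tumor than in adjacent tissue was 4 or 5, and 160 of 162 gene values kept their direction and their side of the threshold; the exceptions were the Tff2 values given in the report. With the replicate block fixed on the 5 pairs, and with no replicate block, 5 genes passed, and the block changed no other call; Gkn2 was 7.51 and 7.48. Leaving out each array in turn gave 5 of 6 genes throughout.

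Against wildtype, leaving out each array in turn gave 0 to 5 genes. The count was 0 when normal arrays lacking acinar transcripts were left out and 0 within ID letter F, where the single wildtype array is replicate 1, assumed to vary like the other groups. There Gkn1 was -0.12, Gkn2 -0.071 and Tff1 -0.11. With only the groups compared, Tff1 missed the threshold (adjusted p = 0.0508). Tff2 passed with array weights (6.30), whose estimation stopped before it converged, as for all array-weight values here, without the arrays with acinar transcripts (7.13, 1 wildtype array) and within letter B (4.77).

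Between adjacent tissue and wildtype, 2 genes passed within letter F against the single wildtype array, Gkn1 (-6.19) and Tff1 (-5.48), and 0 in every other alternative. Gkn3 turned to 0.032 with array weights and 0.026 without the arrays with acinar transcripts, and ran from -3.09 to 0.14 over single arrays left out. Tff2 turned to 0.73 and 0.33 in these settings and ran from -3.34 to 0.17. The cause was not tested. Scaling moved the median of all genes by under 0.1. No call of detection accompanied the signals, so the level at which low values reach background is not known here.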
